A study of Homo sapiens with 24 samples.

Results

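REST and 7 neuronal genes that it is known to repress in non-neuronal cells (L1CAM, SYN1, SYT2, SYP, CHGB, RUNDC3A and SCG2) were followed in MV4-11 cells, an established human acute myeloid leukaemia line. The genes were listed by name, with earlier results of these data known, and found by symbol in the gene table. All 8 of 8 were present among 38048 genes, and all 8 passed the filter on low counts that left 16640 genes tested. SYN1 and CHGB passed it only through libraries of treated groups, as both were too low in DMSO. Their calls against DMSO below carry this selection. REST is a zinc-finger protein that binds the RE1 element of neuronal genes and recruits the CoREST complex, which holds the histone demethylase LSD1 and histone deacetylases, and, through its other end, the Sin3 complex. In cells outside the nervous system it keeps genes of synaptic vesicles, secretory granules and neural adhesion at low levels.

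Poly(A) RNA was sequenced in 24 libraries, 3 (A, B and C) in each of 8 groups. Cells received PRT220 at 3 nM together with GSK-LSD1 at 10 nM, GSK-LSD1 at 10 nM, PRT220 at 3 nM, or the solvent DMSO, for 3 days. The other groups received MS023 with GSK-LSD1, MS023, MC4455 or MC4491, whose doses and times were not given in the sources used here. PRT220 inhibits the arginine methyltransferase PRMT5, GSK-LSD1 inhibits LSD1, MS023 inhibits type I arginine methyltransferases, and MC4455 and MC4491 are known here only by their code names. All libraries were labelled PRMT5 +/+ and came from this 1 cell line, and the design asked which expression changes accompany the combined inhibition of PRMT5 and LSD1. Nothing in the labels said whether replicates were separate cultures, and p-values therefore speak only of the variation among the libraries sequenced, which may be technical.

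The libraries totalled between 32495446 and 61090593 estimated counts. The gene RRP9 was under 5 CPM (CPM are counts scaled to library size) in 8 libraries (PRT220+GSK-LSD1 C, MS023+GSK-LSD1 B, all 3 of PRT220, MS023 A and C, and DMSO C), and the labels give no reason. Myeloid markers were present in every group, with all 10 of 10 listed genes above 1 CPM and a summed level of 3390 to 3620 CPM in PRT220+GSK-LSD1, 3840 to 4020 CPM in GSK-LSD1 and 2550 to 2570 CPM in DMSO. These sums do not describe the myeloid list as a whole. Against DMSO, 4 of its genes were called higher and 4 lower in GSK-LSD1, 4 and 4 in MS023+GSK-LSD1, and 4 and 3 in PRT220+GSK-LSD1. Of 10 neuron markers, TUBB3 and RBFOX3 alone passed 1 CPM, and NEFL, STMN2 and GAP43 were at 0 in all 24 libraries. The neuron list summed to 10.3 to 11.0 CPM in PRT220+GSK-LSD1, 8.14 to 10.0 CPM in MS023+GSK-LSD1 and 10.3 to 11.6 CPM in GSK-LSD1, against 6.41 to 7.79 CPM in DMSO, and its part in the results below was not tested. Only 2 of its 10 genes passed the filter on low counts. Against DMSO, 1 was called higher in each of these treated groups, and 1 in MC4491, where the list summed to 6.88 to 8.6 CPM. In PRT220+GSK-LSD1 and GSK-LSD1 that gene was TUBB3, whose levels are given below, so these sums do not describe the list as a whole. Of 5 neuroendocrine markers, SYP and NCAM1 alone passed 1 CPM, and CHGA was at 0 in all 24 libraries. That list summed to 4.11 to 4.73 CPM in PRT220+GSK-LSD1, 4.75 to 5.57 CPM in MS023+GSK-LSD1, 4.28 to 5.04 CPM in GSK-LSD1, 6.24 to 7.51 CPM in MC4455 and 5.86 to 6.71 CPM in MC4491, against 5.42 to 6.5 CPM in DMSO, and its part was not tested either. SYP is itself 1 of the 8 genes and was the 1 marker of this list called higher in MC4455 and in MC4491. NCAM1 was the 1 called lower in each group given GSK-LSD1, where SYP was not called. In bulk RNA, fewer cells of a type and less RNA per cell cannot be told apart.

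SYN1 and SYT2 are shown by sequence because SYN1 carries a recognisable RE1 element just before its start, while SYT2 had the largest fold change of the 8 genes in each group given GSK-LSD1 and has alternative starts. RefSeq promoter windows (GRCh38.p14, 250 bases before to 50 after a start) were found for 5 of the 8 genes, in 8 windows. They were searched on both strands for the RE1 half-sites TCAGCACC and GGACAG, which lie 2 bases apart in the canonical element. TCAGCACC occurred in 1.67% of 35116 RefSeq windows and GGACAG in 20.5%, and both at this spacing occurred in 14 windows, or 0.0399%. SYN1 was the 1 gene of the 5 with both half-sites at this spacing, at chrX:47620074-47620089, from 232 to 217 bases before its start. A window of REST held GGACAG alone, and no half-site was found in the windows of SYT2, SYP and L1CAM, which says only that these letters are not in these windows. Capitals in the SYN1 sequence mark the half-sites with the 2 bases between them, and the SYT2 sequences have none. The SYN1 stretch ends before the first annotated start of the gene, and each SYT2 stretch holds the 250 bases before a start, all on the minus strand. The start called used is that of the transcript given most SYT2 reads by the deposited estimates, and start use itself was not measured.
SYN1 upstream, chrX:47619944-47620107: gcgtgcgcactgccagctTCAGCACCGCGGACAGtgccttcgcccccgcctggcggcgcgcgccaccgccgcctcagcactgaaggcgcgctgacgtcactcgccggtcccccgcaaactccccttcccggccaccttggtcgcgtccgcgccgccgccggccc
SYT2 upstream of the start used, chr1:202643454-202643703: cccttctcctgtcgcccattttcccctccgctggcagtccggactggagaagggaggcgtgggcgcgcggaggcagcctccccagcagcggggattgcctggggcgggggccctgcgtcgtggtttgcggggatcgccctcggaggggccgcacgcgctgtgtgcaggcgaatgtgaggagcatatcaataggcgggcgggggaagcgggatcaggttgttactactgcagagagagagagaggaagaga
SYT2 upstream of the distal start, chr1:202710455-202710704: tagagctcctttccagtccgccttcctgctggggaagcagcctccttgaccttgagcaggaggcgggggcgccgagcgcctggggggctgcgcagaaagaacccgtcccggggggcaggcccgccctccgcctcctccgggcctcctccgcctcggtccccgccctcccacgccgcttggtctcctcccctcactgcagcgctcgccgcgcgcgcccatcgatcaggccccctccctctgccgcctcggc

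REST itself, the repressor, hardly differed between groups. Its level was 157, 160 and 157 CPM in PRT220+GSK-LSD1, 150, 146 and 135 CPM in MS023+GSK-LSD1, 153, 154 and 157 CPM in GSK-LSD1, and 153, 158 and 144 CPM in DMSO. The other groups were 155 to 164 CPM in PRT220, 139 to 153 CPM in MS023, 146 to 150 CPM in MC4455 and 146 to 150 CPM in MC4491, so that each treated group overlapped DMSO. The 7 log2 fold changes against DMSO lay between -0.08 in MS023+GSK-LSD1 and 0.08 in PRT220, each with an SE near 0.041, and no adjusted p was below 0.137 (the quasi-likelihood test of edgeR, Benjamini-Hochberg adjusted over all 16640 genes, used throughout, with genes called below 0.05). Per transcript length, REST was the highest of the 8 genes, at 49.0 ± 2.47 TPM, a level scaled to transcript length in DMSO (SD, n = 3). Next in DMSO came RUNDC3A at 4.67 TPM, SYP at 2.44 TPM and SYT2 at 0.925 TPM, while SCG2, L1CAM, SYN1 and CHGB were at 0.205, 0.190, 0.145 and 0.0545 TPM. Most REST reads fell on the coding transcript REST-201, which held 65.1% of them in PRT220+GSK-LSD1 and 66.3% in DMSO, with nearly all the rest on REST-208. REST lies at chr4:56907876-56966678 on the plus strand of GRCh38 and shares 23 exonic bases with NOA1 on the other strand.

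**Figure D1:**
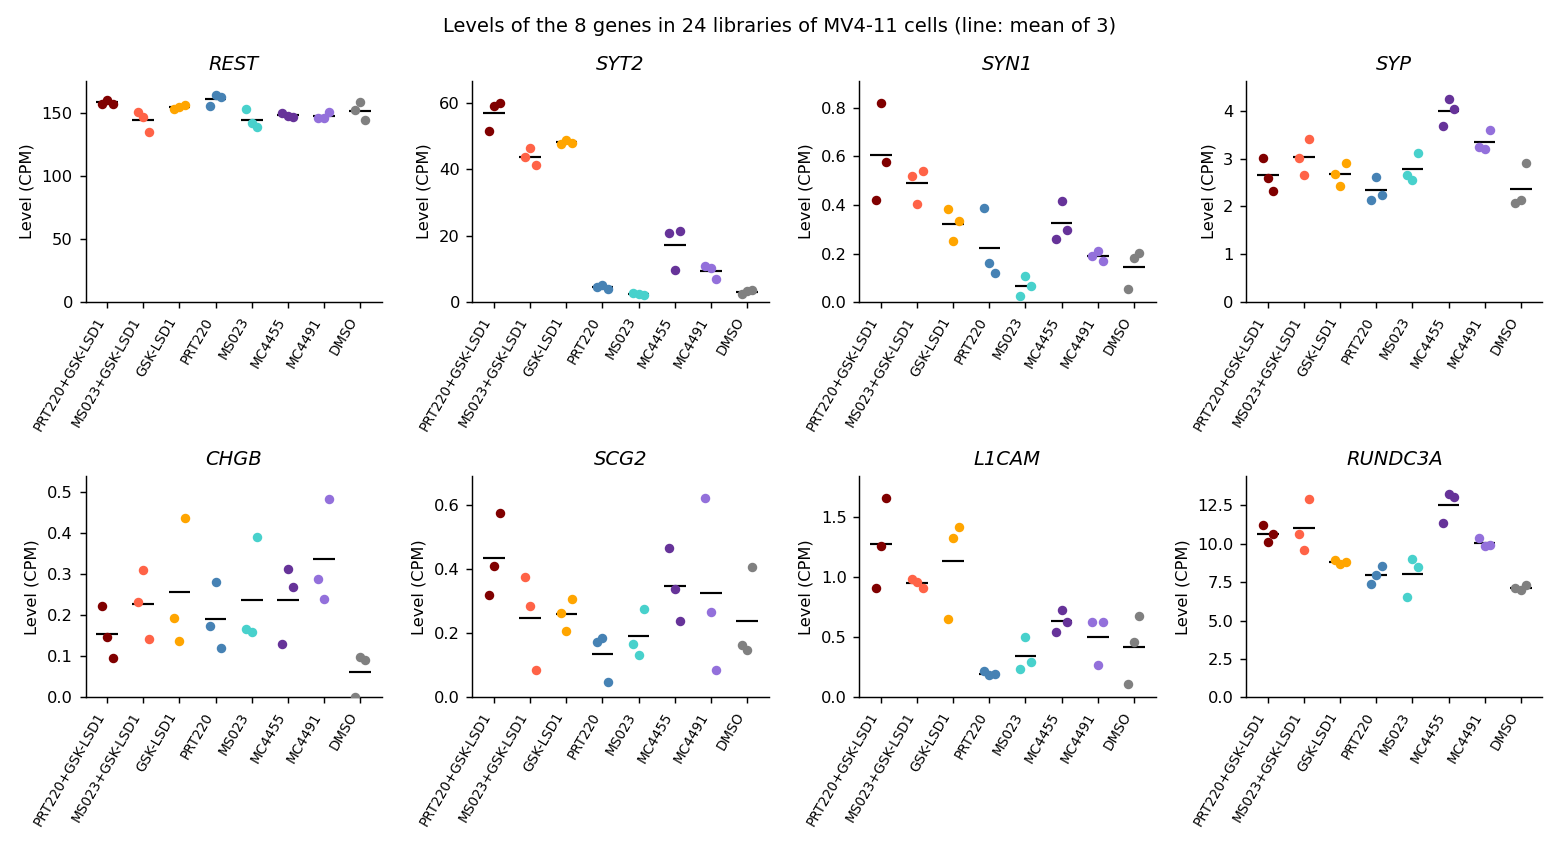
Levels in CPM (y axes, linear and starting at 0) of the 8 genes in each library (points) and the mean of 3 (lines), by treatment along the x axis with DMSO at the right. SYT2 stood at 41.2 CPM or more in all 9 libraries with GSK-LSD1 and at 3.63 CPM or less in DMSO, while REST was at 135 to 164 CPM in all 24 libraries.

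SYT2, the calcium sensor that triggers fast release of synaptic vesicles, rose in each group given GSK-LSD1 and in both code-named compounds. It was at 51.4, 59.0 and 59.8 CPM in PRT220+GSK-LSD1, 43.6, 46.4 and 41.2 CPM in MS023+GSK-LSD1, 47.7, 48.8 and 47.8 CPM in GSK-LSD1, and 2.56, 3.35 and 3.63 CPM in DMSO. All 9 libraries with GSK-LSD1 were above every library without it. Against DMSO, SYT2 was 17.7-fold higher in PRT220+GSK-LSD1 (log2 fold change 4.15, SE 0.23, adjusted p = 8.64e-12). The corresponding log2 fold changes were 3.77 in MS023+GSK-LSD1 (SE 0.228, adjusted p = 4.03e-11) and 3.91 in GSK-LSD1 (SE 0.229, adjusted p = 3.06e-11). Its per-length level was 16.7 ± 0.995 TPM in PRT220+GSK-LSD1 and 0.925 ± 0.148 TPM in DMSO (SD, n = 3 each), so it stood above RUNDC3A in the combination and below it in DMSO. The call held under each alternative that was run for these comparisons.

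In MC4455, SYT2 was at 20.8, 9.59 and 21.5 CPM, and in MC4491 at 10.8, 10.3 and 7.03 CPM, against 2.56 to 3.63 CPM in DMSO. No library of either compound overlapped DMSO, and library B of MC4455 lay below its group's other libraries, inside the range of MC4491. The log2 fold changes were 2.43 in MC4455 (SE 0.224, adjusted p = 2.35e-07) and 1.55 in MC4491 (SE 0.226, adjusted p = 7.49e-05). PRT220 had 4.63, 5.23 and 4.12 CPM, just above the highest DMSO library, without a call (log2 fold change 0.54, SE 0.233, adjusted p = 0.0991), and all 3 PRT220 libraries were of the low-RRP9 kind. MS023 had 2.77, 2.45 and 2.13 CPM and overlapped DMSO (log2 fold change -0.39, SE 0.25, adjusted p = 0.494).

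SYT2 has 2 annotated transcripts on the minus strand of chromosome 1. The deposited transcript estimates placed all SYT2 reads on SYT2-201, which starts at position 202643453, in GSK-LSD1 and in DMSO, and 94.0% of them in PRT220+GSK-LSD1. SYT2-202, whose annotated start lies at 202710417, received 3.24, 0 and 6.34 CPM in PRT220+GSK-LSD1 and 0, 1.42 and 0 CPM in MS023+GSK-LSD1, and none in the other 18 libraries. These values differed widely between replicates of the same group.

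The libraries were unstranded, and the end of SYT2 overlaps the end of PPP1R12B, a myosin phosphatase subunit gene on the other strand. SYT2-201 shares 2111 of its 7614 exonic bases, or 27.7%, with PPP1R12B, so reads there cannot be told apart by strand. PPP1R12B rose as well, with a log2 fold change against DMSO of 1.14 in PRT220+GSK-LSD1, 0.91 in MS023+GSK-LSD1, 0.96 in GSK-LSD1, 0.59 in MC4455 and 0.36 in MC4491 (adjusted p of 8.16e-11, 2.83e-09, 1.52e-09, 7.57e-06 and 0.00136). Its 2 transcripts that share bases with SYT2 averaged 125 ± 3.57 CPM in PRT220+GSK-LSD1, 108 ± 2.78 CPM in GSK-LSD1 and 53.8 ± 3.68 CPM in DMSO (SD, n = 3 each). Its 16 transcripts with no shared base averaged 14.7 ± 1.59 CPM in PRT220+GSK-LSD1, 13.4 ± 1.58 CPM in GSK-LSD1 and 9.29 ± 2.49 CPM in DMSO. How much of either gene's change comes from reads of the other was not tested.

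**Figure D2:**
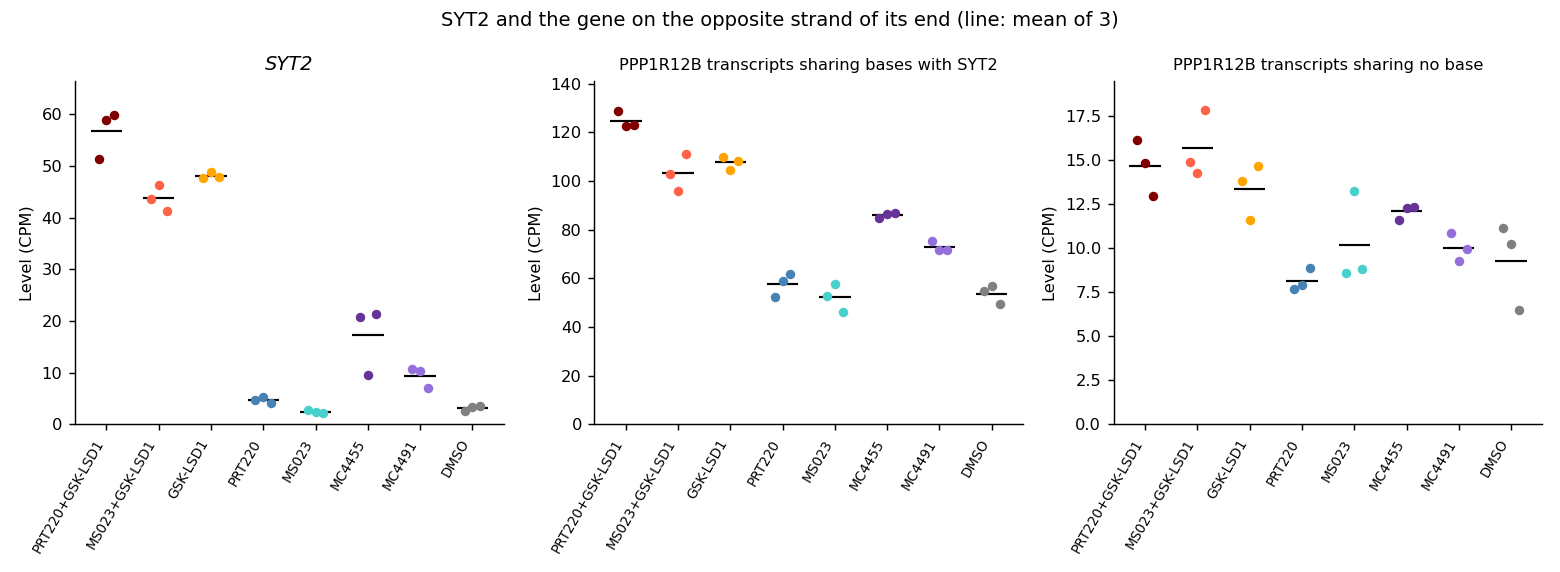
Levels in CPM (linear y axes from 0) of SYT2, of the 2 PPP1R12B transcripts that share bases with it and of the 16 that share none, per library (points) with the mean of 3 (lines), by treatment along the x axis. SYT2 averaged 56.7 CPM in PRT220+GSK-LSD1 and 3.18 CPM in DMSO, and the overlapping PPP1R12B transcripts averaged 125 CPM and 53.8 CPM in the same groups. The SYT2 levels are TMM-scaled, and the transcript levels are scaled to the library total alone.

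SYN1 encodes synapsin I, a phosphoprotein that tethers synaptic vesicles, and stayed below 1 CPM in every library. Estimated counts were 17, 28 and 24 in PRT220+GSK-LSD1 (0.419, 0.819 and 0.576 CPM), 18, 17 and 19 in MS023+GSK-LSD1 (0.521, 0.406 and 0.540 CPM), and 2, 11 and 9 in DMSO (0.0545, 0.181 and 0.203 CPM). Neither combination overlapped DMSO. The log2 fold change was 1.97 in PRT220+GSK-LSD1 (SE 0.447, adjusted p = 0.00107) and 1.67 in MS023+GSK-LSD1 (SE 0.452, adjusted p = 0.00461). GSK-LSD1 alone had 16, 11 and 13 counts (0.385, 0.252 and 0.334 CPM), above each DMSO library, but was not called (adjusted p = 0.0796). MC4455 also lay above DMSO, with 10, 16 and 10 counts, without a call (adjusted p = 0.0707), and MS023 had the lowest mean, with 1, 4 and 3 counts. TIMP1, which lies within SYN1 on the other strand and shares no exonic base with it, had log2 fold changes of 0.57 in PRT220+GSK-LSD1 and 0.39 in GSK-LSD1 against DMSO (adjusted p of 1.32e-06 and 0.000205). What TIMP1 reads add to SYN1 was not tested. SYN1 shares 297 exonic bases with AL009172.2 on its own strand and 23 with ARAF on the other. The SYN1 sequence above therefore belongs to a gene measured from at most 28 counts a library.

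SYP encodes synaptophysin, an abundant membrane protein of synaptic vesicles, and was called higher in MC4455 and MC4491. It was at 3.69, 4.25 and 4.03 CPM in MC4455 and 3.24, 3.19 and 3.59 CPM in MC4491, against 2.07, 2.13 and 2.91 CPM in DMSO. Both compounds lay wholly above DMSO, with log2 fold changes of 0.75 in MC4455 (SE 0.147, adjusted p = 0.000597) and 0.49 in MC4491 (SE 0.147, adjusted p = 0.0156). Without DMSO A, DMSO B or MC4491 C, the MC4491 value was not called (adjusted p of 0.0773, 0.0828 and 0.0519). PRT220+GSK-LSD1 had 2.33 to 3.01 CPM, MS023+GSK-LSD1 2.65 to 3.41 CPM and GSK-LSD1 2.43 to 2.91 CPM, each overlapping DMSO and not called. Between 68.1% of SYP reads (in PRT220) and 86.6% (in GSK-LSD1) were assigned to SYP-208, a retained-intron transcript with no coding sequence.

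The granins CHGB and SCG2, which help to form dense-core secretory granules, were at the edge of detection. CHGB had 12, 9 and 17 estimated counts in MC4491, 5, 12 and 9 in MC4455, 8, 13 and 5 in MS023+GSK-LSD1 and 8, 6 and 17 in GSK-LSD1, against 0, 6 and 4 in DMSO. In CPM, each of these groups lay above DMSO. The log2 fold changes were 2.25 in MC4491 (SE 0.643, adjusted p = 0.0125), 1.75 in MC4455 (SE 0.665, adjusted p = 0.0443), 1.71 in MS023+GSK-LSD1 (SE 0.665, adjusted p = 0.0393) and 1.85 in GSK-LSD1 (SE 0.654, adjusted p = 0.0349). PRT220+GSK-LSD1 had 9, 5 and 4 counts, overlapped DMSO and was not called (adjusted p = 0.188). MS023 alone had 7, 6 and 17 counts and PRT220 alone 8, 12 and 5, also above DMSO in CPM, and neither was called. Of 6 fits that left out 1 library, 4 lost the MC4455 call (without MC4455 B or C, DMSO A, the library at 0, or DMSO C, adjusted p of 0.154, 0.103, 0.134 and 0.0642). As many lost the MS023+GSK-LSD1 call (without MS023+GSK-LSD1 A or B, DMSO A or DMSO C, adjusted p of 0.0731, 0.14, 0.123 and 0.056), and 3 lost the GSK-LSD1 call (without GSK-LSD1 C, DMSO A or DMSO C, adjusted p of 0.225, 0.111 and 0.0555). In MC4455, MS023+GSK-LSD1 and GSK-LSD1, CHGB was not called without a filter on low counts (adjusted p of 0.0653, 0.0592 and 0.0531) or without the low-RRP9 libraries (0.0857, 0.169 and 0.0771), and without MC4491 C it was not called in MC4491 (adjusted p = 0.0506). SCG2 was between 2 and 26 counts in all 24 libraries, overlapped DMSO in every treated group and was not called against DMSO.

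L1CAM, a neural cell adhesion molecule, was called higher in the 3 groups given GSK-LSD1, and only the call in PRT220+GSK-LSD1 held under all alternatives run. It was at 0.912, 1.26 and 1.66 CPM in PRT220+GSK-LSD1, 0.985, 0.956 and 0.910 CPM in MS023+GSK-LSD1, 0.650, 1.33 and 1.41 CPM in GSK-LSD1, and 0.109, 0.461 and 0.677 CPM in DMSO. Both combinations lay above DMSO, whereas library A of GSK-LSD1 fell within the DMSO range. The log2 fold changes were 1.58 in PRT220+GSK-LSD1 (SE 0.43, adjusted p = 0.0047), 1.16 in MS023+GSK-LSD1 (SE 0.434, adjusted p = 0.0324) and 1.41 in GSK-LSD1 (SE 0.43, adjusted p = 0.015). The MS023+GSK-LSD1 call was lost in 5 of 6 fits that left out 1 library, namely MS023+GSK-LSD1 A, B or C, DMSO A, which had 4 counts, or DMSO B (adjusted p of 0.0687, 0.0585, 0.0588, 0.13 and 0.0595). The GSK-LSD1 call was lost in 3 of 6, without GSK-LSD1 B or C or DMSO A (adjusted p of 0.0574, 0.0651 and 0.0601). It was not called in MC4455, at 0.545 to 0.730 CPM, or in MC4491, at 0.266 to 0.626 CPM. PRT220 had the lowest mean, with 0.216, 0.187 and 0.193 CPM, and was not called against DMSO (adjusted p = 0.114), although it was called lower once DMSO A was left out. L1CAM shares 439 exonic bases with U52112.1 on the same strand and 359 with LCA10 on the other, so its level is uncertain to that extent.

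RUNDC3A encodes a RUN-domain protein that binds the small GTPase Rap2 and is expressed mainly in neurons. It rose by small amounts, without overlap with DMSO. It was at 11.2, 10.1 and 10.7 CPM in PRT220+GSK-LSD1, 10.7, 9.61 and 12.9 CPM in MS023+GSK-LSD1, 8.93, 8.66 and 8.79 CPM in GSK-LSD1, 11.3, 13.2 and 13.0 CPM in MC4455, 10.4, 9.85 and 9.91 CPM in MC4491, and 7.12, 7.004 and 7.29 CPM in DMSO. The 3 DMSO libraries were close together and were the lowest of any group but MS023, whose library A was at 6.51 CPM. The log2 fold changes were 0.58 in PRT220+GSK-LSD1, 0.63 in MS023+GSK-LSD1, 0.81 in MC4455 and 0.49 in MC4491 (SE 0.107 each, adjusted p of 0.000139, 6.37e-05, 1.37e-05 and 0.00205). In GSK-LSD1 alone it was 0.30 (SE 0.107, adjusted p = 0.0352), and that call was lost in 10 of 14 alternatives, while the log2 fold change over the 14 ran from 0.26 to 0.32. Most reads were assigned to the retained-intron transcript RUNDC3A-203, 83.8% in PRT220+GSK-LSD1 and 92.0% in DMSO. The coding transcript RUNDC3A-201 took 11.2% in PRT220+GSK-LSD1 and 5.73% in DMSO. RUNDC3A shares 225 exonic bases with RUNDC3A-AS1 on the other strand.

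Counted over the 8 genes, 4 were called against DMSO in PRT220+GSK-LSD1 (SYT2, SYN1, L1CAM and RUNDC3A), where 46.5% of all tested genes were called. In MS023+GSK-LSD1 5 of 8 were called (SYT2, SYN1, L1CAM, RUNDC3A and CHGB), where 48.4% of all tested genes were called, and in GSK-LSD1 4 of 8 (SYT2, L1CAM, RUNDC3A and CHGB), where 32.6% were called. In MC4455 and in MC4491 the same 4 of 8 were called (SYT2, SYP, RUNDC3A and CHGB), where 37.6% and 30.7% of all tested genes were called. Each count is within 2 genes of what these shares, which hold calls in either direction, give for 8 genes, and nothing particular to the 8 is read from the counts. All members called against DMSO were higher. The 8 genes were chosen with earlier results of these data known, so this direction and the medians below are description and not a test. Among all tested genes, 24.4% were called higher in PRT220+GSK-LSD1, 25.1% in MS023+GSK-LSD1, 17.6% in GSK-LSD1, 13.8% in PRT220, 0.889% in MS023, 18.5% in MC4455 and 15.5% in MC4491. Every called member was higher, and these shares are smaller than those for either direction. The counts must therefore lie further above these shares, and nothing is read from that. In PRT220 and in MS023, 0 of 8 were called by edgeR and 0 by DESeq2, where 24.9% and 2.25% of all tested genes were called by edgeR, and 3 and 1 of the 8 had an unadjusted p under 0.05, as did 35.8% and 15.1% of all tested genes. The median log2 fold change of the 8 genes was 1.01 in PRT220+GSK-LSD1, 0.895 in MS023+GSK-LSD1, 0.69 in GSK-LSD1, 0.119 in PRT220, -0.183 in MS023, 0.78 in MC4455 and 0.482 in MC4491. The medians of all tested genes in the same order of groups were 0.035, 0.027, 0.029, 0.0019, -0.0014, 0.0088 and 0.012. The 7 treatments share the DMSO libraries, and leaving out DMSO A left SYT2 as the 1 gene called in GSK-LSD1 and 3 genes (SYT2, SYN1 and RUNDC3A) in MS023+GSK-LSD1. Leaving out GSK-LSD1 C also left SYT2 as the 1 gene called in GSK-LSD1, leaving out GSK-LSD1 B or DMSO C left 2 genes, leaving out MS023+GSK-LSD1 A left 3 in that group, and leaving out MC4491 C left 2 in MC4491 (SYT2 and RUNDC3A).

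**Figure D3:**
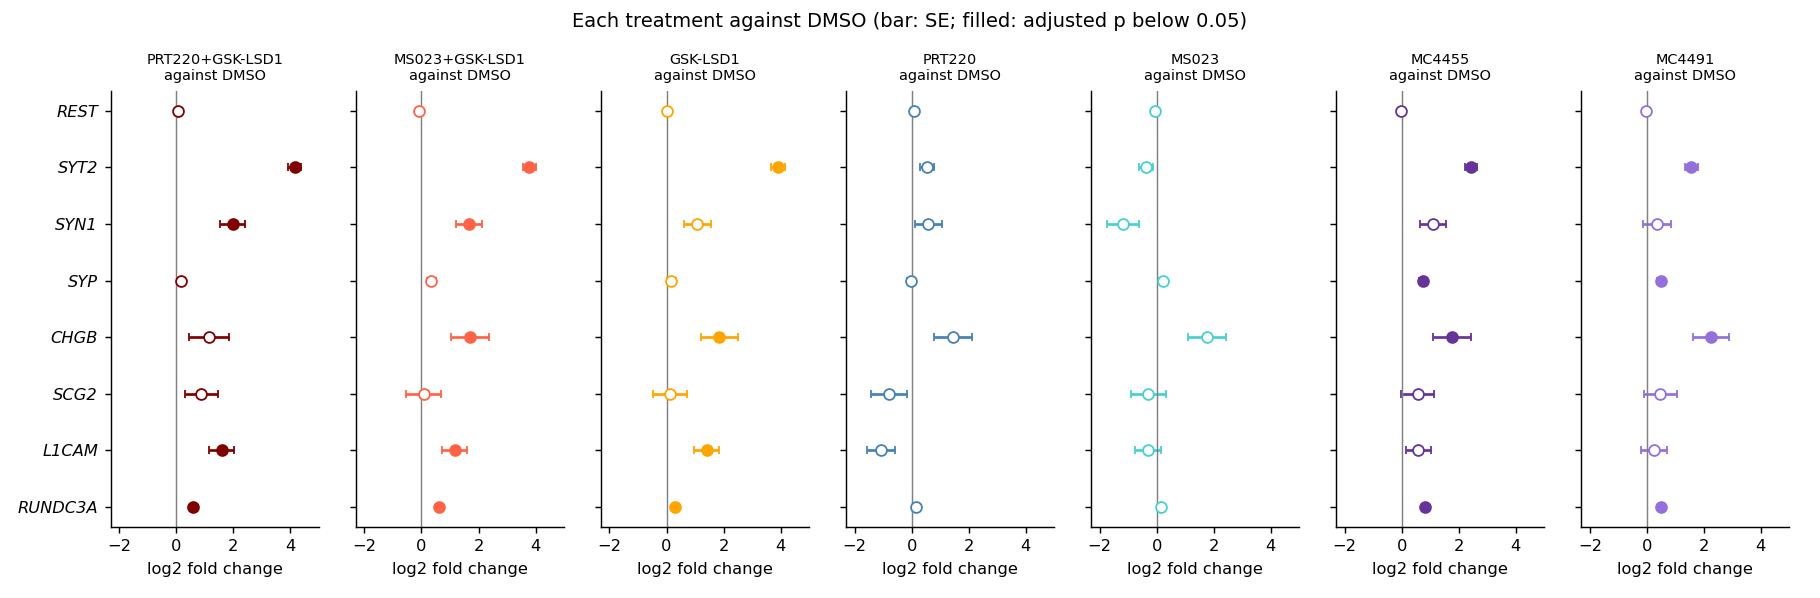
log2 fold change against DMSO (x axes) of the 8 genes (rows) in the 7 treatments (panels), with bars for the SE and filled points for an adjusted p below 0.05. SYT2 was at 4.15, 3.77 and 3.91 in the groups with GSK-LSD1 and at 2.43 and 1.55 in MC4455 and MC4491, and no gene was called lower.

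Several of these genes were called higher in each combination against its methyltransferase inhibitor alone, and nothing particular to the 8 is read from these counts. Against GSK-LSD1 alone, no member was called, although some alternatives called RUNDC3A or SYT2. Against PRT220, PRT220+GSK-LSD1 had 5 of 8 genes called (SYT2, SYN1, L1CAM, RUNDC3A and SCG2), where 38.2% of all tested genes were called and 19.4% were called higher. SYT2 differed by 3.60 on the log2 scale (SE 0.222, adjusted p = 7.47e-11) and L1CAM by 2.66 (SE 0.469, adjusted p = 0.000129). SCG2 had 13, 14 and 24 counts in PRT220+GSK-LSD1 and 8, 8 and 2 in PRT220 (log2 fold change 1.65, SE 0.614, adjusted p = 0.0397), a call that was lost in 5 of 6 fits that left out 1 library. Leaving out PRT220+GSK-LSD1 B, PRT220 B or PRT220 C left 3 genes called (SYT2, L1CAM and RUNDC3A). The 3 PRT220 libraries and PRT220+GSK-LSD1 C were low in RRP9, and the part of that feature in these differences was not tested beyond the alternatives given.

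Against MS023, MS023+GSK-LSD1 had 4 of 8 genes called (SYT2, SYN1, L1CAM and RUNDC3A), where 40.0% of all tested genes were called and 20.0% were called higher. SYT2 differed by 4.16 on the log2 scale (SE 0.237, adjusted p = 2.01e-11). SYN1 differed by 2.85 (SE 0.518, adjusted p = 0.000164), with 18, 17 and 19 counts in MS023+GSK-LSD1 and 1, 4 and 3 in MS023. The L1CAM call was lost without MS023 A or MS023 C (adjusted p of 0.0645 and 0.0521), and the RUNDC3A call in a fit of these 2 groups alone (adjusted p = 0.0545). Removal of the low-RRP9 libraries left MS023 B as the 1 library of MS023. The log2 fold changes were then 0.90 for L1CAM and 0.38 for RUNDC3A, and a fit with 1 library on a side cannot judge either call.

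Against GSK-LSD1 alone, neither combination had a member called by edgeR. In PRT220+GSK-LSD1 15.3% of all tested genes were called, and an unadjusted p was under 0.05 for 2 of the 8 and 27.8% of all tested genes. In MS023+GSK-LSD1 10.9% were called, and an unadjusted p was under 0.05 for 2 of the 8 and 26.5% of all tested genes. DESeq2 called 0 genes of the 8 in PRT220+GSK-LSD1 and 1, RUNDC3A, in MS023+GSK-LSD1, where it called 2858 and 2145 genes in all. Its input was the 25894 genes with any count, so these numbers are not shares of the genes tested by edgeR. SYT2 was at 51.4 to 59.8 CPM in PRT220+GSK-LSD1 and 47.7 to 48.8 CPM in GSK-LSD1, which did not overlap, with a log2 fold change of 0.24 (SE 0.192, adjusted p = 0.48). A fit of those 2 groups alone called it (log2 fold change 0.25, adjusted p = 0.0145). MS023+GSK-LSD1, at 41.2 to 46.4 CPM, lay below GSK-LSD1 without a call (log2 fold change -0.14, SE 0.193, adjusted p = 0.694). The interaction, the log2 fold change of the combination against DMSO less the sum of those of its single agents, was -0.30 for SYT2 with PRT220 (SE 0.302, adjusted p = 0.802) and 0.25 with MS023 (SE 0.315, adjusted p = 0.873). None of the 8 genes had a called interaction by edgeR or DESeq2, where edgeR called 0.541% of all tested genes with PRT220 and 0% with MS023, and DESeq2 called 198 and 21 genes in all. An unadjusted p was under 0.05 for 1 and 2 of the 8, as for 10.1% and 8.15% of all tested genes.

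**Figure D4:**
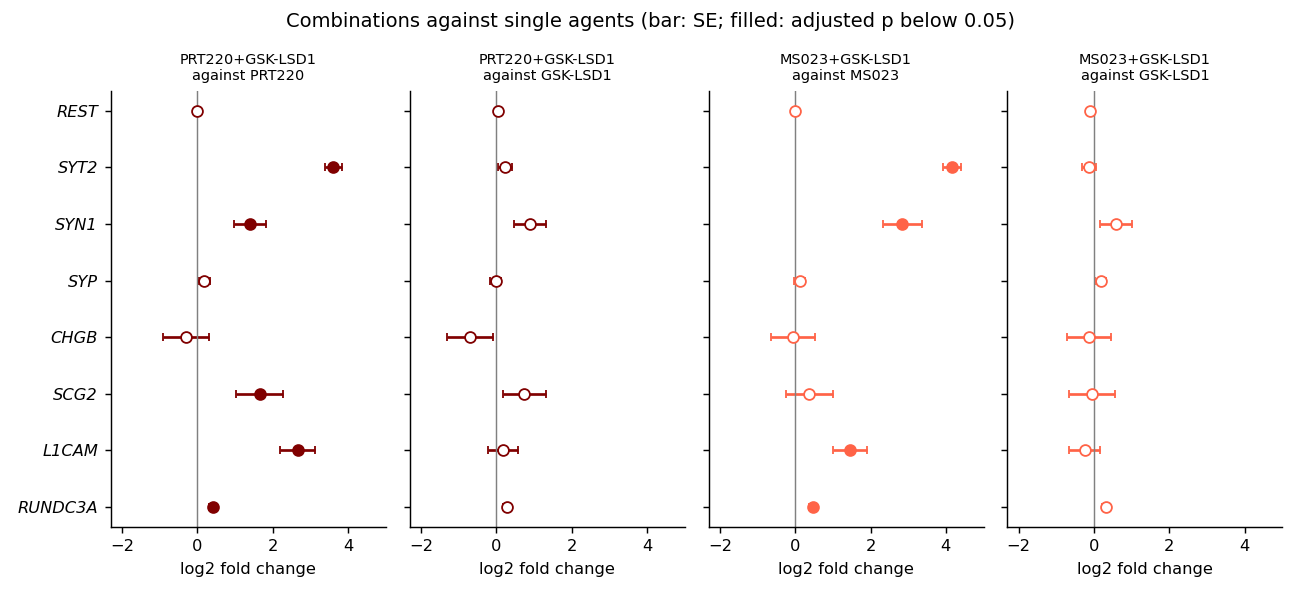
log2 fold change (x axes) of the 8 genes (rows) in each combination against its single agents (panels), with bars for the SE and filled points for an adjusted p below 0.05. SYT2 was at 3.60 against PRT220 and 4.16 against MS023, and at 0.24 and -0.14 against GSK-LSD1.

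Among the corepressors and regulators that act with REST, 24 of 26 listed genes were tested. In GSK-LSD1 6 were called higher and 5 lower, in PRT220+GSK-LSD1 7 and 8, in MS023+GSK-LSD1 7 and 6, in MC4455 5 and 7, in MC4491 4 and 5, in PRT220 4 and 0, and in MS023 0 and 0 by edgeR, with a list median within 0.05 of 0 on the log2 scale in each. The share called was 62.5% in PRT220+GSK-LSD1, 54.2% in MS023+GSK-LSD1, 45.8% in GSK-LSD1, 16.7% in PRT220, 50% in MC4455, 37.5% in MC4491 and 0% in MS023, beside 46.5%, 48.4%, 32.6%, 24.9%, 37.6%, 30.7% and 2.25% of all tested genes. KDM1A, which encodes LSD1, was slightly lower in PRT220+GSK-LSD1, at 104 CPM against 123 CPM in DMSO (log2 fold change -0.24, adjusted p = 8.14e-05), in MS023+GSK-LSD1 (-0.17, adjusted p = 0.00256), in GSK-LSD1 (-0.15, adjusted p = 0.00711), in MC4455 (-0.22, adjusted p = 0.000431) and in MC4491 (-0.19, adjusted p = 0.00227). RCOR1, the CoREST scaffold, was at 163 CPM in PRT220+GSK-LSD1, 171 CPM in GSK-LSD1 and 165 CPM in DMSO and was called in no comparison with DMSO.

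CTDSPL, which had the largest change of this list in these groups, belongs to a phosphatase family known to remove phosphate from REST. It was at 1.56 CPM in PRT220+GSK-LSD1 (log2 fold change -1.58, adjusted p = 1.04e-07), 1.81 CPM in MS023+GSK-LSD1 (-1.36, adjusted p = 8.77e-07) and 2.21 CPM in GSK-LSD1 (-1.08, adjusted p = 1.92e-05), against 4.66 CPM in DMSO. CTDSP1, of the same family, fell by 0.52 in PRT220+GSK-LSD1, by 0.44 in MS023+GSK-LSD1 and by 0.36 in GSK-LSD1 on the log2 scale (adjusted p of 6.23e-08, 8.26e-07 and 1.55e-05). ZNF217, a zinc-finger protein found with CoREST and LSD1, rose to 513 CPM in PRT220+GSK-LSD1, 509 CPM in MS023+GSK-LSD1 and 512 CPM in GSK-LSD1, against 345 CPM in DMSO (log2 fold changes of 0.57, 0.56 and 0.57, adjusted p of 1.07e-09, 1.98e-09 and 1.79e-09). PHF21A, the CoREST subunit that reads unmodified histone H3, was lower in PRT220+GSK-LSD1 (log2 fold change -0.345, adjusted p = 0.00102) and GSK-LSD1 (-0.34, adjusted p = 0.00166). SIN3B, a scaffold of the Sin3 complex, was higher in PRT220+GSK-LSD1 (0.39, adjusted p = 5.02e-07), PRT220 (0.24, adjusted p = 0.000454) and MC4455 (0.26, adjusted p = 0.000267), and was also called higher in GSK-LSD1, MS023+GSK-LSD1 and MC4491.

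Of 47 other neuronal genes with a known RE1 site, 29 passed the filter and were tested. In PRT220+GSK-LSD1 8 were called higher and 2 lower, in MS023+GSK-LSD1 6 and 3, in GSK-LSD1 2 and 2, in PRT220 4 and 1, in MC4455 4 and 0, in MC4491 5 and 1, and in MS023 0 and 0 by edgeR. The share called was 34.5% in PRT220+GSK-LSD1, 31% in MS023+GSK-LSD1, 13.8% in GSK-LSD1, 17.2% in PRT220, 13.8% in MC4455, 20.7% in MC4491 and 0% in MS023, beside 46.5%, 48.4%, 32.6%, 24.9%, 37.6%, 30.7% and 2.25% of all tested genes. The list medians were 0.27 in PRT220+GSK-LSD1 and 0.11 in GSK-LSD1 on the log2 scale, beside 0.035 and 0.029 for all tested genes. PCSK2, a prohormone-cleaving protease, was higher in PRT220+GSK-LSD1 (0.533 CPM, log2 fold change 1.80, adjusted p = 0.00324), in MS023+GSK-LSD1 (1.51, adjusted p = 0.0123), in GSK-LSD1 (1.41, adjusted p = 0.0257), in MC4455 (1.65, adjusted p = 0.00946) and in MC4491 (1.66, adjusted p = 0.0114), against 0.149 CPM in DMSO. TUBB3, the neuronal beta-tubulin, which is also in the neuron marker list, was at 9.10 CPM in PRT220+GSK-LSD1 and 9.61 CPM in GSK-LSD1, against 6.09 CPM in DMSO (log2 fold changes of 0.58 and 0.65, adjusted p of 0.000123 and 4.58e-05). The muscarinic receptor gene CHRM4 was lower in PRT220+GSK-LSD1 (log2 fold change -1.34, adjusted p = 0.00529), MS023+GSK-LSD1 (-1.76, adjusted p = 0.000784) and GSK-LSD1 (-1.07, adjusted p = 0.0267). BDNF was lower in MS023+GSK-LSD1 (-1.655, adjusted p = 0.0297), a call lost in 4 of 6 fits that left out 1 library. SCG3, a granin also counted among the family members below, had the largest called change in PRT220 (log2 fold change 1.31, adjusted p = 0.00547). In GSK-LSD1 the calls of PCSK2 and CHRM4 were each lost in 5 of 14 alternatives.

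Of 33 family members of the 8 genes, 20 were tested. In MS023+GSK-LSD1 6 were called higher and 3 lower, in PRT220+GSK-LSD1 4 and 4, in GSK-LSD1 2 and 2, in PRT220 1 and 0, in MC4455 5 and 1, in MC4491 4 and 0, and in MS023 0 and 0 by edgeR. The share called was 40% in PRT220+GSK-LSD1, 45% in MS023+GSK-LSD1, 20% in GSK-LSD1, 5% in PRT220, 30% in MC4455, 20% in MC4491 and 0% in MS023, beside 46.5%, 48.4%, 32.6%, 24.9%, 37.6%, 30.7% and 2.25% of all tested genes. SYT11, a synaptotagmin that does not bind calcium, was at 24.3 CPM in PRT220+GSK-LSD1, 24.2 CPM in MS023+GSK-LSD1, 22.1 CPM in GSK-LSD1 and 17.8 CPM in MC4455, against 12.5 CPM in DMSO (log2 fold changes of 0.96, 0.96, 0.82 and 0.51, adjusted p of 1.02e-07, 1.31e-07, 1.43e-06 and 0.000592). SYT3 was higher in GSK-LSD1 (log2 fold change 0.58, adjusted p = 0.00226). The synaptogyrins SYNGR3 and SYNGR1, relatives of synaptophysin, were lower in GSK-LSD1 (-0.51 and -0.42, adjusted p of 0.00419 and 0.000103). In PRT220+GSK-LSD1, SCG5 and SYT7 were lower (log2 fold changes of -2.755 and -1.59, adjusted p of 0.0395 and 0.0356). Both calls were lost in 4 of 6 fits that left out 1 library. NRCAM, an adhesion molecule related to L1CAM, was at 0.284 CPM in PRT220+GSK-LSD1 and 0.0680 CPM in DMSO (log2 fold change 2.18, adjusted p = 0.00859). Over the 6 fits that left out 1 library this value ran from 1.46 (without DMSO B) to 3.13 (without DMSO A), and the call was lost without the low-RRP9 libraries (adjusted p = 0.0763). Its call in MS023+GSK-LSD1 (1.90, adjusted p = 0.0223) was lost in 3 of 6 such fits (without MS023+GSK-LSD1 A or B or DMSO B), which ran from 1.18 to 2.84. SYN3, a synapsin, was higher in MC4455 (0.71, adjusted p = 0.00788). SYT17 was higher in MC4455 and MS023+GSK-LSD1 (0.70 and 0.67, adjusted p of 0.0035 and 0.00325).

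**Figure D5:**
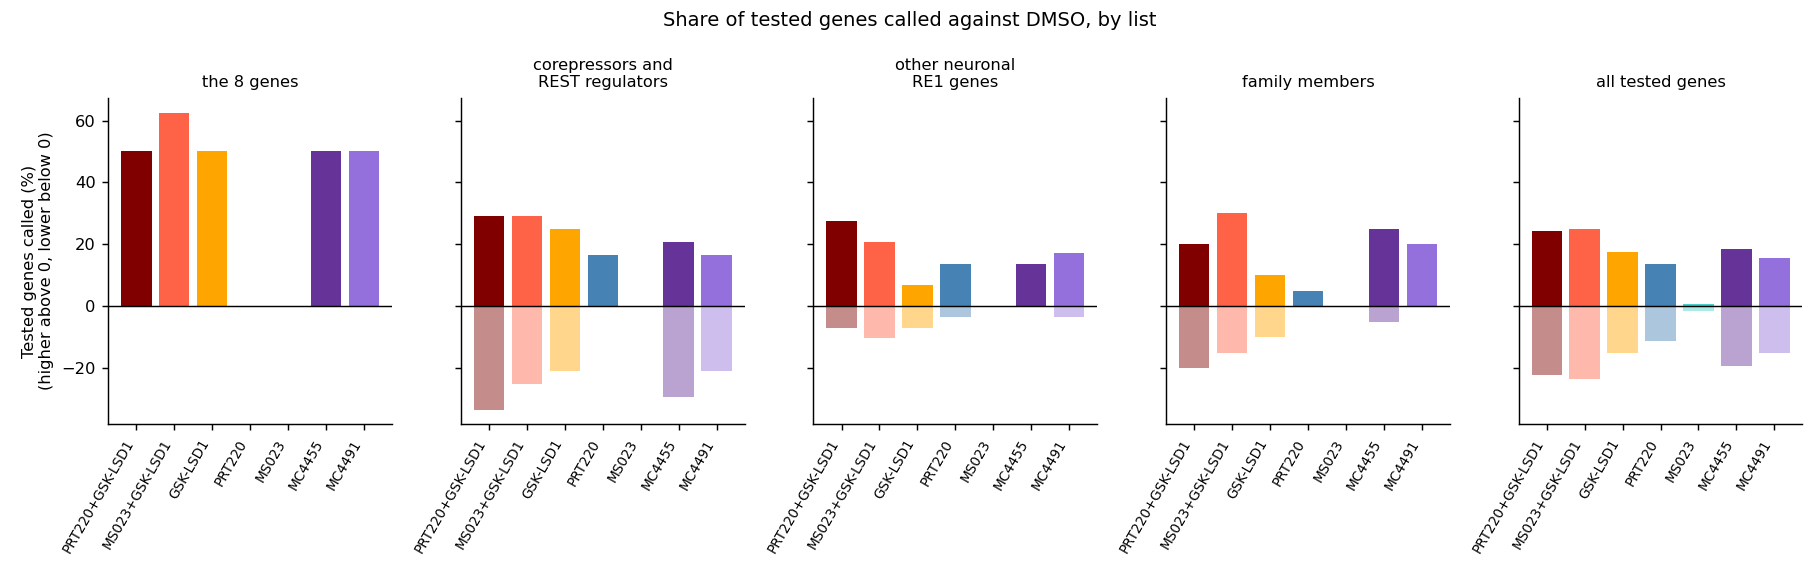
Share of tested genes called against DMSO (y axis, percent), higher above 0 and lower below 0, for the 8 genes, the 3 lists and all tested genes (panels) in each treatment (x axes). All bars of the 8 genes are above 0, while all tested genes were split between higher and lower, at 17.6% higher of 32.6% called in GSK-LSD1. The 8 genes and the lists were chosen with earlier results of these data known, so this contrast is not a test.

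Across the 24 libraries, SYT2, SYN1 and L1CAM varied together, with Pearson r of log2 CPM of 0.825 for SYT2 with SYN1, 0.808 for SYT2 with L1CAM and 0.73 for SYN1 with L1CAM. RUNDC3A varied most with SYP (r = 0.742). REST had r between -0.526, with SYP, and 0.113, with SYT2. These coefficients describe libraries that share groups of 3, and for low genes they also hold counting noise. By the same measure over 24 libraries, IL31RA, a cytokine receptor gene (r = 0.986), and PLXDC2, which encodes a transmembrane protein (r = 0.985), were among the 3 genes most like SYT2. IL31RA was at 20.9 CPM in GSK-LSD1 and 4.66 CPM in DMSO, and PLXDC2 at 54.2 CPM in GSK-LSD1 and 15.9 CPM in DMSO. The gene most like L1CAM was CD109 (r = 0.917), that most like SYN1 was CECR2 (r = 0.898), and those most like RUNDC3A were SLC4A8 and DAPK2 (r = 0.923 each). OR7A17 was most like SYP (r = 0.862), ZNF24 most like REST (r = 0.897) and H4C4 most like CHGB (r = 0.743), and RRAS was among the 3 most like SCG2 (r = 0.711).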

How the data were processed

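Poly(A)-selected, unstranded RNA libraries of 24 samples were analysed from the gene and transcript tables that the authors deposited. The authors deposited estimated counts per gene and per transcript, with no scaling across samples, a unit inferred here from fractional values and unequal totals. The submitters' processing notes name the build GRCh38 and the tools DESeq2 1.28.1, R 4.0.0, STAR 2.7.3a and Salmon 1.2.1, without their roles or an annotation release. Symbols were found for 35051 of 38048 gene identifiers in a supplied name table, the label LSD1 was read as GSK-LSD1, and transcripts and coordinates came from GENCODE 29, and the authors may have used another release; 167049 of 178398 transcripts matched, holding 96.6% to 96.8% of reads.

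Estimated counts were rounded and fitted in R 4.3.3 with edgeR 4.0.16 (TMM scaling, filterByExpr, the 8 groups fitted together over the 24 libraries, quasi-likelihood test, Benjamini-Hochberg adjustment over 16640 genes). The SE is the log2 fold change divided by the square root of F. Gene levels are TMM-scaled CPM (counts scaled to library size). CPM of transcripts, and of RRP9 for its cut-off, are scaled to the library total without TMM. TPM was computed from transcript counts and annotated lengths. There were 13 comparisons. The fit was tested on simulated data. None of 24 same-group library pairs was identical.

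The 8 genes are always named. Of each list, up to 4 called genes with the largest change in 5 comparisons with DMSO qualified, together with KDM1A, RCOR1 and the 3 genes most correlated with each of the 8; the text uses fewer, and some are not reported here. The members and lists were chosen with earlier results of these data known. Alternatives were RLE scaling, DESeq2, no filter, only the groups compared, a replicate block, a term for low-RRP9 libraries or their removal, each library left out in turn, and gene counts rebuilt from transcripts.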

Additional observations from a re-analysis of the deposited data

How the results depend on the processing

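Of 411 refits of the 30 called values of the 8 genes, none changed direction and 58 lost the call; SYT2 lost none. Without a filter on low counts, 2 of the 8 genes were called in GSK-LSD1 against DMSO. With only the groups compared, 2 were called in GSK-LSD1, 3 in MS023+GSK-LSD1 and 2 in MC4491 against DMSO, and 2 (RUNDC3A and SYT2) in PRT220+GSK-LSD1 against GSK-LSD1. A term for low-RRP9 libraries gave 1 call (RUNDC3A) in each combination against GSK-LSD1. RLE scaling, DESeq2, counts rebuilt from transcripts and the removal of low-RRP9 libraries each gave 1 (RUNDC3A) in MS023+GSK-LSD1 against GSK-LSD1. That removal left MS023 B as the 1 library of MS023, so it cannot judge the calls against MS023. It could not be run for PRT220, whose 3 libraries were all low. The cause of these moves was not tested.

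Leaving out 1 library at a time gave 1 to 3 genes called in GSK-LSD1, 3 to 6 in MS023+GSK-LSD1, 2 to 4 in MC4491 and 0 to 1 in PRT220 against DMSO, 3 to 5 in PRT220+GSK-LSD1 against PRT220, and 0 to 1 in MS023+GSK-LSD1 against GSK-LSD1. REST in GSK-LSD1 against DMSO, 0.03 on the log2 scale, changed sign without low-RRP9 libraries (-0.0079) and ran from -0.0271 (without DMSO C) to 0.0353 over single libraries left out. REST in MS023+GSK-LSD1 was called without low-RRP9 libraries (-0.12, adjusted p = 0.0424) or without DMSO C (-0.11, adjusted p = 0.0401). None of the other named genes' 885 refits changed direction and 80 lost the call, and 24 of 291 counts over the lists moved by more than 1.5 times.

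No pairing by replicate letter was detected, and the labels do not say what the letters mark. Same-letter libraries of different groups correlated at -0.298 to 0.23 after group means were removed, and 17 of 84 such pairs passed 0.1. In 0 of 28 pairs of groups did every same-letter pair pass 0.1. With 3 libraries a group, this check cannot show that the samples were unpaired. With a replicate block, 4 of the 8 genes were called in GSK-LSD1 against DMSO, as without it, and the counts of the other comparisons were equal too.

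Over all tested genes, the calls in MS023 against DMSO ranged from 0 to 640 beside 375, in MS023+GSK-LSD1 against GSK-LSD1 from 465 to 2945 beside 1808, in the interaction with PRT220 from 27 to 198 beside 90, in the interaction with MS023 from 0 to 21 beside 0, in MC4491 against DMSO from 2963 to 5385 beside 5112, in MS023+GSK-LSD1 against MS023 from 3359 to 7010 beside 6659, and in PRT220+GSK-LSD1 against GSK-LSD1 from 1662 to 3084 beside 2553. SYN1, CHGB, SCG2 and L1CAM had at most 69 estimated counts a library, which limits what these depths can show for them.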
